A study of Mus musculus with 30 samples.

Results

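Genes of families that include enzymes placing or removing methyl groups on histone tails were followed in the RNA of mouse sperm after tesaglitazar injection. Members were the genes whose symbol begins with Kdm, Kmt, Prdm, Smyd, Nsd or Suv and a digit, with Setd or Ehmt, or is Ezh1 or Ezh2. The 24 h table held 55 such genes among 16242 features (genes and repeat families), and 15 of the 55 were also among the 3082 features of the 46-day table. All 55 are annotated as protein-coding. They were matched by symbol alone, and Setd3, for example, methylates actin.

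C57Bl/6J males aged 3 months at injection received intraperitoneal tesaglitazar, an agonist of both PPARα and PPARγ, at 10 µg/kg (TESA) or its vehicle, DMSO in saline (CTRL), 2 times per week for 4 weeks. Polyadenylated RNA was sequenced from sperm of 4 TESA and 4 CTRL males 24 h after the last injection. RNA depleted of rRNA was sequenced from sperm of 7 TESA and 7 CTRL males 46 days after it. Sperm had been taken from the cauda epididymis by swim-up and treated to lyse somatic cells, and the comparisons ask whether the RNA of mature sperm differs with the drug soon after treatment and after a delay that covers spermatogenesis.

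Histone lysine methylation is written mostly by SET-domain enzymes and erased by the amine oxidases of the KDM1 family and by Jumonji-domain demethylases. Methylation at H3K4 and H3K36 accompanies active promoters and transcribed gene bodies, while H3K9, H3K27 and H4K20 methylation mark repressed or compacted chromatin. Most histones are exchanged for protamines in late spermatids, and condensed sperm chromatin is hardly transcribed, so a transcript level here is not a measure of enzyme activity or of the mark.

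Library totals ran from 15337589 to 27709990 estimated counts at 24 h and from 4538102 to 13513816 at 46 days. The 5 features with the most counts, Rn18s-rs5 first, took between 26% and 98.2% of a 46-day library, so that library TESA 02 kept 158820 counts outside them and CTRL 14 kept 7119414. Members summed to 62 counts in TESA 02, 427 in TESA 12 and 9518 in CTRL 14. At 24 h they summed to between 8861 counts (CTRL 2) and 32631 counts (TESA 7). Levels below are CPM values, counts scaled by library total and TMM factor. They are compared between samples of one table. Members are not ranked against each other by level, because a longer transcript collects more counts.

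All 13 sperm and late spermatid markers were present in both tables. At 24 h their summed level was 9300, 5020, 10300 and 6430 CPM in TESA 1, 3, 5 and 7, and 8270, 3360, 8670 and 11400 CPM in CTRL 2, 4, 6 and 8, with the most counts from Odf1. CTRL 4 and TESA 3 thus had the lowest sperm marker sums. Spermatocyte markers were nearly absent, with 2 of 7 in the table and sums between 0.678 and 3.8 CPM. Of 6 spermatogonium markers 5 were in the table, summing to between 36.6 and 87.7 CPM with the most counts from Uchl1. Leukocyte markers (9 of 10 in the table, most counts from Lyz2) summed to between 78.8 and 151 CPM, erythrocyte markers (4 of 5, most counts from Hba-a2) to between 53.5 and 270 CPM, and smooth muscle markers (5 of 5, most counts from Tagln) to between 11.9 and 77.3 CPM. Epididymal epithelium markers, 7 of 11 in the table with the most counts from Spink8, reached between 1070 CPM in CTRL 2 and 2830 CPM in CTRL 8. Of the 10 Sertoli and Leydig markers only Sox9 and Clu were in the table, and Clu, which epididymal epithelium also makes, carried sums between 379 and 1210 CPM. The 46-day table held the 13 sperm markers and Uchl1 and no other listed marker, and the sperm markers summed to between 357 CPM (CTRL 13) and 877 CPM (TESA 11). In such bulk samples, fewer cells of a type and less RNA per cell cannot be told apart.

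At 24 h no member changed past an adjusted p of 0.05. Of the 55 genes, 49 met the filter of over 20 counts in 4 or more libraries. Among these, 0 passed in edgeR's quasi-likelihood fit of 13752 features, adjusted by Benjamini-Hochberg, as did 0% of all those features. At an unadjusted p under 0.05 stood 3 members, or 6.12%, against 2.71% of all tested features. The exact test and DESeq2 gave the same 3 members, and 377 and 492 of all 13752 features. In limma voom 4 members, Setd8, Setd2, Kdm7a and Suv420h2, stood there without Kdm6a, as did 1022 of the 13752 features. On the scale of library totals only Setd8 did, with 151 of the features. Each of these had 0 members past the adjusted threshold. Of the 3 members at an unadjusted p under 0.05 in the quasi-likelihood fit, Setd8 was higher in TESA and Setd2 and Kdm6a were lower. At this threshold 0.953% of all features were higher and 1.75% were lower. The TESA and CTRL values did not overlap for 3 members, Setd8, Smyd3 and Smyd5, all higher in TESA (1.32% of all features), and for 0 members in the lower direction (1.95% of all features). The median log2 fold change was -0.01 over members and -0.02 over all tested features. In this fit 23 of 49 members and 6569 of 13752 features were higher in TESA. When library totals alone set the scale, 37 of 49 members and 8984 of 13752 features were higher. Counts by role on that scale, given below, stand beside this shift of all features. Ezh2, Kdm4a, Kdm8, Prdm16, Setd6 and Smyd1 did not meet the count filter and were not tested. Without TESA 1, TESA 5 or CTRL 8 the count at an unadjusted p under 0.05 was 1, and without CTRL 6 it was 5. In the same order, 378, 289, 254 and 402 of all tested features stood there in these fits.

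All 3 genes for enzymes of H4K20 methylation had a log2 fold change above 0, as had 47.8% of all tested features, and the groups overlapped for 2 of them. Setd8, listed as Kmt5a in the annotation (chr5:124439930-124462311), places the first methyl group on H4K20 and is needed for chromosome compaction and genome stability. Its level was 15, 13.6, 14.3 and 13 CPM in TESA 1, 3, 5 and 7, and 5.1, 7.44, 9.85 and 9.18 CPM in CTRL 2, 4, 6 and 8. Each TESA library lay above the highest CTRL library, and the TESA values lay closer together, with means of 14 ± 0.881 CPM (SD, n = 4) in TESA and 7.89 ± 2.12 CPM (SD, n = 4) in CTRL. The log2 fold change was 0.82 ± 0.28 (SE; 95% interval 0.21 to 1.44), with an unadjusted p of 0.0139 and an adjusted p of 1 (edgeR quasi-likelihood, Benjamini-Hochberg). The unadjusted p of Setd8 stayed under 0.05 in each of the 8 fits that left out 1 library and in each of 10 other settings.

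Suv420h2 (Kmt5c in the annotation) and Suv420h1 (Kmt5b) extend the mark to its di- and trimethylated forms. Suv420h2 was measured at 21.5, 24.7, 24.3 and 27.6 CPM in TESA 1, 3, 5 and 7, and at 9.61, 31.5, 16.4 and 6.37 CPM in CTRL 2, 4, 6 and 8. The TESA libraries were even, whereas CTRL 4 stood above all of them and the other CTRL libraries below, so the groups overlapped. A log2 fold change of 0.62 ± 0.43 (SE, unadjusted p = 0.18) became 1.20 without CTRL 4, with an unadjusted p of 0.00634, and 0.35 without CTRL 8, and it was 1.21 in limma voom (unadjusted p = 0.0145). Suv420h1 ranged from 3.6 to 9.44 CPM in TESA and from 4.22 to 7.12 CPM in CTRL, with a log2 fold change of 0.35 ± 0.38 (SE). All 3 genes of the group kept this direction when DESeq2 size factors, TMM over the tested features or library totals set the scale, and without CTRL 4.

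Among H3K36 methyltransferases 2 were higher and 2 were lower, or 3 and 1 on the scale of library totals. Setd2 (chr9:110532500-110618633) is the enzyme that trimethylates H3K36 behind elongating RNA polymerase. It gave 11, 16, 6.8 and 13.8 CPM in TESA 1, 3, 5 and 7, and 13.9, 34.4, 17.3 and 22.3 CPM in CTRL 2, 4, 6 and 8. Of the 4 TESA libraries 3 lay below every CTRL library, and TESA 3 lay above CTRL 2. The log2 fold change was -0.88 ± 0.36 (SE; 95% interval -1.68 to -0.09), with an unadjusted p of 0.0327 and an adjusted p of 1 (edgeR quasi-likelihood, Benjamini-Hochberg). It was -0.56 without CTRL 4, the library with the highest value, where the unadjusted p was 0.129. The unadjusted p was also above 0.05 without TESA 1 (0.0755), TESA 5 (0.0854) or CTRL 8 (0.0605) and on the scale of library totals (0.179).

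The other enzymes of the group, Nsd1, Nsd2 and Nsd3, place mono- and dimethylation. Nsd1 was the most evenly measured of the 4, between 35.5 and 47.4 CPM in TESA and between 38.7 and 45.6 CPM in CTRL. Its log2 fold change of -0.04 had a 95% interval from -0.45 to 0.37. Nsd2 was even in TESA, from 11.5 to 13.5 CPM, and scattered in CTRL, from 3.4 CPM in CTRL 4 to 20.1 CPM in CTRL 2. Nsd3 ranged from 11.6 to 33.3 CPM in TESA and from 11 to 34.1 CPM in CTRL, with TESA 3 and CTRL 4 the highest of their groups.

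Kdm6a and Kdm6b, the demethylases grouped here by H3K27, differed in sign. Kdm6a (UTX, chrX:18160862-18279936) is an X-linked demethylase that belongs to the KMT2C and KMT2D complexes. Its level was 2.04, 3.76, 2.32 and 3.07 CPM in TESA 1, 3, 5 and 7, and 6.68, 5.9, 3.4 and 6.03 CPM in CTRL 2, 4, 6 and 8. TESA 3 exceeded CTRL 6, and the other TESA libraries lay below all CTRL libraries. The log2 fold change was -0.97 ± 0.41 (SE; 95% interval -1.89 to -0.06), with an unadjusted p of 0.0396 and an adjusted p of 1 (edgeR quasi-likelihood, Benjamini-Hochberg). Only the fits without TESA 3 (0.0313) or CTRL 6 (0.0252) kept an unadjusted p under 0.05. Without TESA 1, 5 or 7 it was 0.0894, 0.0765 and 0.0591, and without CTRL 2, 4 or 8 it was 0.0849, 0.0826 and 0.0916, while the log2 fold change stayed between -1.15 and -0.83. The unadjusted p of Kdm6a was 0.0526 in limma voom and 0.203 on the scale of library totals. Its Y-linked relative Uty, which shares sequence with it, had a log2 fold change of 0.11 ± 0.46 (SE). Kdm6b, the inducible H3K27 demethylase, spread from 27.6 to 53.5 CPM in TESA and from 19.9 to 60.5 CPM in CTRL, a log2 fold change of 0.19 ± 0.36 (SE). The methyltransferases of the same residue gave little to compare. Ezh2 reached at most 36 counts in a library, exceeded 20 in fewer than 4 libraries and was not tested. Ezh1, the other catalytic subunit of Polycomb complex 2, was at 0 in TESA 5 and at 2.51 CPM in CTRL 4 against 14.2 to 20.2 CPM in the other libraries. Its log2 fold change was 0.03 ± 1.05 (SE) and -0.29 without CTRL 4.

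**Figure D1:**
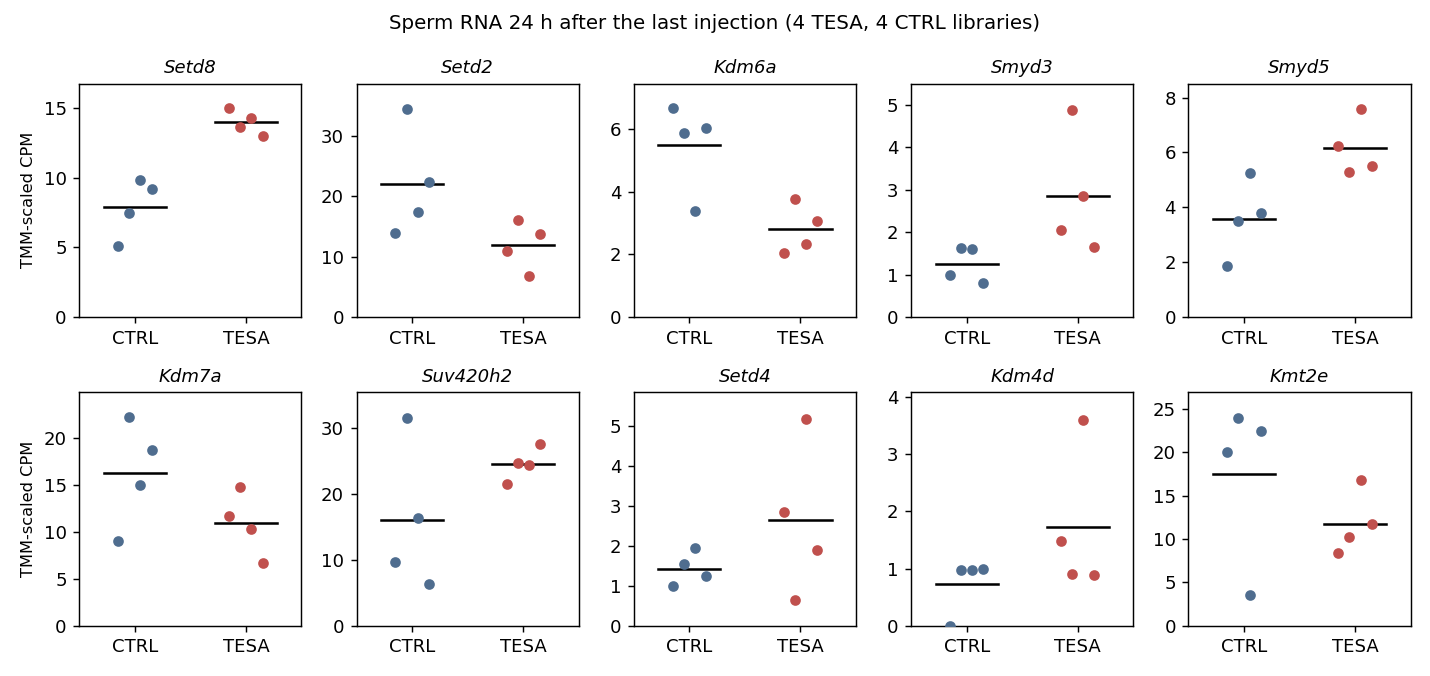
TMM-scaled CPM of the 10 members with the smallest unadjusted p at 24 h, one panel per gene with its own scale from 0. Each point is 1 library (4 CTRL, 4 TESA) and each bar is the group mean, and the groups do not overlap for Setd8, Smyd3 and Smyd5.

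Members grouped here as H3K4 methyltransferases showed no common direction, with 5 of 11 tested higher and 6 lower. On the scale of library totals 8 were higher, and without CTRL 4 it was 9. Smyd3 (chr1:178951960-179518053), a SET and MYND domain methyltransferase also known to act on non-histone proteins, had 2.04, 4.89, 2.86 and 1.65 CPM in TESA 1, 3, 5 and 7. The CTRL libraries 2, 4, 6 and 8 had 1, 1.62, 1.6 and 0.796 CPM. The groups did not overlap, but TESA 7 and CTRL 4 were nearly equal. This gave a log2 fold change of 1.19 ± 0.61 (SE, unadjusted p = 0.0797). Kmt2e, a relative of trithorax required for normal spermatogenesis, gave 8.33, 10.2, 16.8 and 11.7 CPM in TESA 1, 3, 5 and 7 and 20, 23.9, 3.59 and 22.4 CPM in CTRL 2, 4, 6 and 8. Every TESA library lay between CTRL 6 and the other CTRL libraries, with a log2 fold change of -0.57 ± 0.50 (SE, unadjusted p = 0.285) that became -0.91 without CTRL 6 (unadjusted p = 0.0136) and -0.35 without CTRL 4. For Kmt2e it was -0.21 in limma voom (unadjusted p = 0.748) and -0.275 on the scale of library totals.

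Of the members named Kmt2 or Setd1, Kmt2a, Kmt2c, Kmt2d, Setd1a and Setd1b had their 2 highest values in CTRL 4 and TESA 3. Kmt2b and Kmt2e did not. Kmt2d was measured at 66.2, 115, 72.3 and 70.7 CPM in TESA 1, 3, 5 and 7 and at 78.5, 167, 50.5 and 53.5 CPM in CTRL 2, 4, 6 and 8. Kmt2a was measured at 19.5, 51.6, 19.4 and 17.7 CPM in the same TESA libraries and at 22.4, 49.5, 17.4 and 19.7 CPM in the CTRL libraries. For both genes TESA 3 and CTRL 4 stood apart from the other 6 libraries. In Kmt2c the same 2 libraries were highest, with 73.4 CPM in TESA 3 and 93.7 CPM in CTRL 4 and at most 44.9 CPM elsewhere. The log2 fold changes of Kmt2d, Kmt2a and Kmt2c were -0.10 ± 0.39, -0.01 ± 0.45 and -0.43 ± 0.43 (SE). In fits chosen after seeing the data, that of Kmt2c was -0.91 without TESA 3 (unadjusted p = 0.0384), 0.01 without CTRL 4 and -0.22 without TESA 1. Setd1a, the catalytic subunit of a complex that trimethylates H3K4, varied less, from 12.9 to 15.2 CPM in TESA and from 9.61 to 19.5 CPM in CTRL. Kmt2b had 31.6, 12.5, 2.46 and 20.3 CPM in TESA 1, 3, 5 and 7 and 0, 38.5, 12.8 and 10.2 CPM in CTRL 2, 4, 6 and 8. Prdm9, which sets meiotic recombination sites and is made by early meiotic cells, was between 0.987 and 5.41 CPM in TESA and between 0.437 and 2.59 CPM in CTRL.

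CTRL 4 and TESA 3 were the 2 highest libraries for 15 of 49 members (30.6%) and for 10.3% of all tested features. They included Kmt2a, Kmt2c, Kmt2d, Setd1a, Setd1b, Kdm2a, Kdm3b, Kdm5a, Kdm5b, Kdm6b, Nsd3 and Prdm2. CTRL 4 alone held the highest value of 21 members (42.9%, against 16.7% of all tested features). The same 2 libraries had the lowest sums of sperm markers, and members summed to 1168 CPM in CTRL 4 and 984.6 CPM in TESA 3 against 625.5 to 748.7 CPM in the other 6. Without CTRL 4, 35 of 49 members were higher in TESA in place of 23, and the median over members was 0.20 in place of -0.01, while the median over all tested features was 0.01. The part of sperm RNA content in these values was not tested.

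H3K9 methyltransferases gave 2 higher and 3 lower of 5 tested, but 3 higher and 2 lower both on the scale of library totals and without CTRL 4. Ehmt2 (G9a), which dimethylates H3K9 in euchromatin and is needed in meiosis, was measured between 37 and 63.2 CPM in TESA and between 41.3 and 60.8 CPM in CTRL. Its log2 fold change was -0.02 with a 95% interval from -0.54 to 0.49. Its partner Ehmt1 was less even, from 1.93 to 6.46 CPM in TESA and from 0.464 to 6.47 CPM in CTRL. Suv39h1, an X-linked enzyme of heterochromatic H3K9 trimethylation, was at 0 in TESA 3 and in CTRL 2 and reached 8.72 CPM in TESA 5, and its 95% interval ran from -2.02 to 4.19. Prdm2 was between 15.8 and 27.5 CPM in TESA and between 14.5 and 32.7 CPM in CTRL.

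Of the 8 tested demethylases of H3K9 and H3K36, 7 were lower in TESA and 1, Kdm4d, was higher, with a median log2 fold change of -0.21. This split held with DESeq2 size factors and with TMM over the tested features, but it was 5 higher and 3 lower with library totals, and 4 higher and 4 lower without CTRL 4. Kdm7a, which also acts on H3K27, had 11.7, 14.8, 10.3 and 6.7 CPM in TESA 1, 3, 5 and 7 and 9.02, 22.2, 15 and 18.7 CPM in CTRL 2, 4, 6 and 8. CTRL 2 lay within the TESA values and the other CTRL libraries above them, and the log2 fold change was -0.58 ± 0.35 (SE, unadjusted p = 0.124). It was -0.37 without CTRL 4 and -0.77 without CTRL 2, where the unadjusted p was 0.0386, and in limma voom it was -0.78 with an unadjusted p of 0.0308. Kdm4d, an H3K9 demethylase of spermatids, had 1.48, 0.908, 3.6 and 0.895 CPM in TESA 1, 3, 5 and 7 and 0, 0.97, 0.97 and 0.995 CPM in CTRL 2, 4, 6 and 8. Its groups overlapped, and its log2 fold change of 1.21 ± 1.06 (SE, unadjusted p = 0.283) was 0.57 without TESA 5 and 0.474 in limma voom. Kdm3a, an H3K9 demethylase that is required for the switch from histones to protamines, had no count in TESA 5 and between 5.32 and 13 CPM in the other TESA libraries. In CTRL it ranged from 2.67 to 15.1 CPM. Its close relative Kdm3b was more even, between 16.8 and 29.5 CPM in TESA and between 16.8 and 29.6 CPM in CTRL, and the 95% interval of its log2 fold change ran from -0.62 to 0.60.

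Demethylases of H3K4 were 3 higher and 3 lower, against 6 higher on the scale of library totals and 5 without CTRL 4. Kdm5b was measured between 27.2 and 49.7 CPM in TESA and between 33.5 and 46.5 CPM in CTRL, a log2 fold change of -0.20 ± 0.24 (SE). Kdm1a (LSD1), the founding histone demethylase, was between 10.1 and 13.6 CPM in TESA and between 9.78 and 15.8 CPM in CTRL, a log2 fold change of 0.04 ± 0.27 (SE). The X-linked Kdm5c was at 0 in TESA 1 and up to 19.6 CPM in TESA 3, and the Y-linked Kdm5d, which resembles it in sequence, was between 0.919 CPM in CTRL 2 and 9.65 CPM in TESA 3. How the reads shared by such X and Y pairs were divided depends on the authors' quantification.

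Among the other SET and SMYD proteins 3 of 5 tested were higher, 4 on the scale of library totals and 5 without CTRL 4. Smyd5 (chr6:85431976-85446429), a SET and MYND domain protein, had 6.23, 5.28, 7.59 and 5.51 CPM in TESA 1, 3, 5 and 7 and 1.84, 3.48, 5.24 and 3.78 CPM in CTRL 2, 4, 6 and 8. The groups did not overlap, although TESA 3 and CTRL 6 were nearly equal. Smyd5 had a log2 fold change of 0.77 ± 0.40 (SE, unadjusted p = 0.0841), and without CTRL 6 it was 1.01 with an unadjusted p of 0.047. Setd4 had 2.84, 0.649, 5.17 and 1.88 CPM in TESA 1, 3, 5 and 7 and 1, 1.54, 1.94 and 1.23 CPM in CTRL 2, 4, 6 and 8. TESA 3 was the lowest and TESA 5 the highest of all 8 libraries. The log2 fold change of 0.88 ± 0.70 (SE, unadjusted p = 0.238) was 0.34 without TESA 5 and 0.416 in limma voom. Setd3, which methylates actin, was between 28.1 and 37.8 CPM in TESA and between 23.4 and 32.3 CPM in CTRL, a log2 fold change of 0.21 ± 0.21 (SE). The 4 other PRDM proteins were split evenly, but 3 were higher on the scale of library totals and without CTRL 4, and Prdm10 ranged from 0.936 CPM in TESA 5 to 60.9 CPM in TESA 3.

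**Figure D2:**
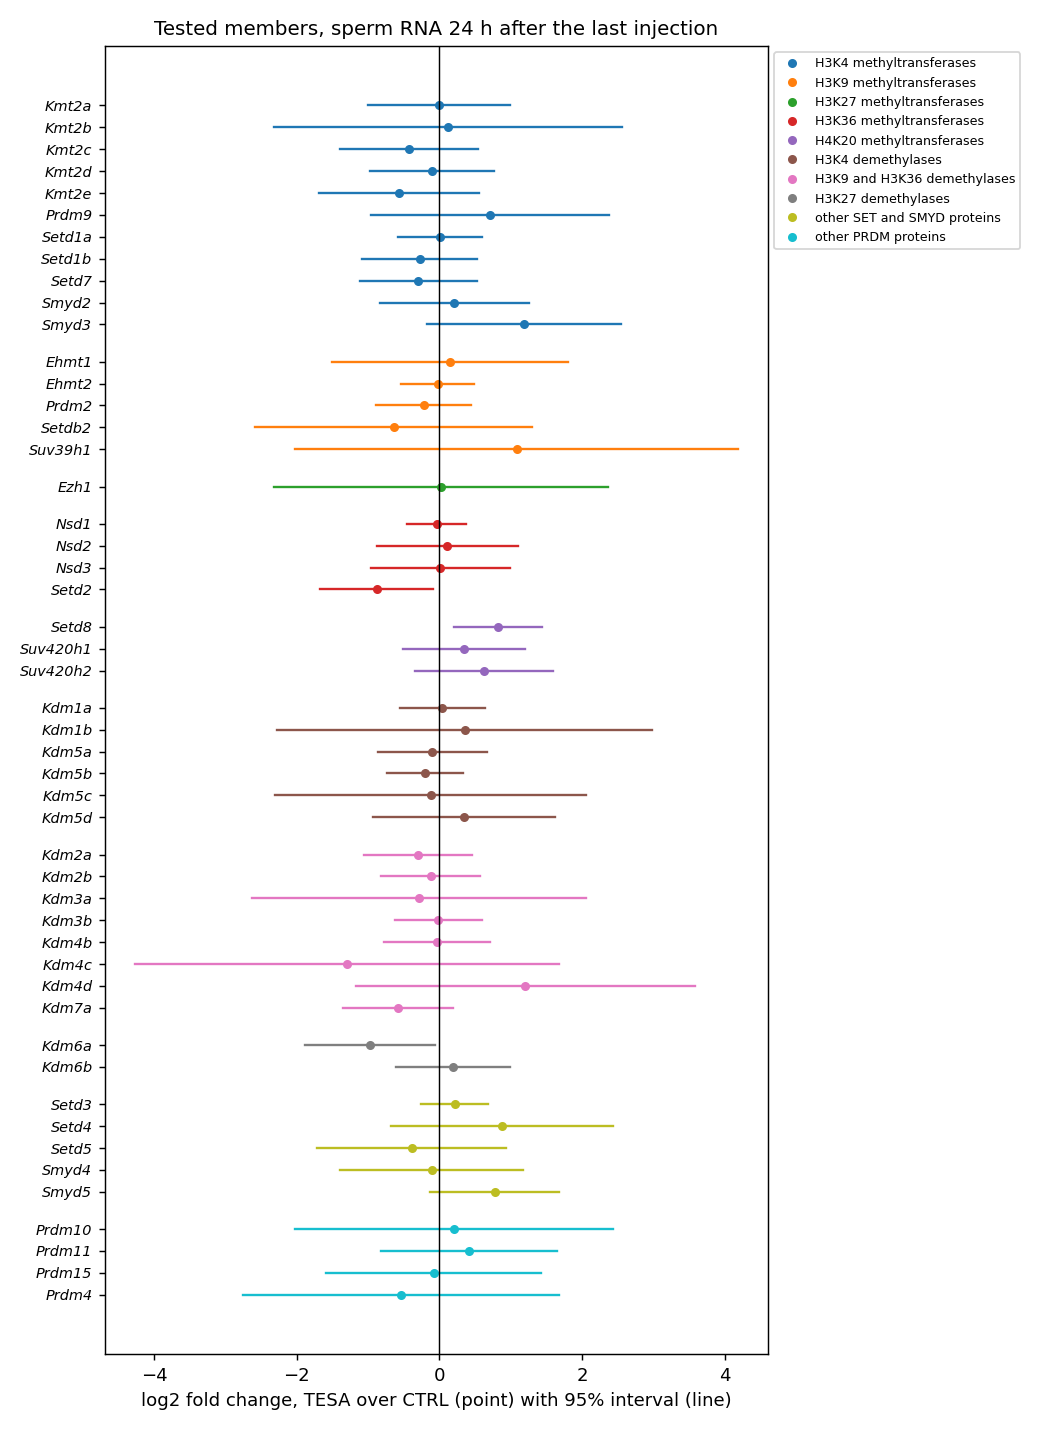
Log2 fold change of TESA over CTRL at 24 h for the 49 tested members, coloured and grouped by role, with 95% intervals from edgeR's quasi-likelihood test (4 TESA, 4 CTRL libraries). The intervals of Setd8, Setd2 and Kdm6a leave out 0 without adjustment, and those of Nsd1, Ehmt2 and Setd3 are among the narrow ones.

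The width of these intervals differed widely between members. For 14 of 49 members (28.6%) the 95% interval stayed within 1 log2 unit of 0 on both sides, as it did for 24.1% of all tested features. For 8 members (16.3%, against 11.4% of all tested features) at least 1 library had no count while another had more than 100. These were Ezh1, Kdm1b, Kdm3a, Kdm4c, Kdm5c, Kmt2b, Prdm4 and Suv39h1. Kdm4c, for example, was at 0 in TESA 3 and TESA 5 and between 3.64 and 10.6 CPM elsewhere.

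Partner genes of the pathway did not change past the adjusted threshold either, with 0 of 40 tested at 24 h. Of these, 18 were higher and 22 lower, and at an unadjusted p under 0.05 stood 1 lower gene and 0 higher genes (2.5%, against 2.71% of all tested features). This gene was Prmt1, the main asymmetric arginine methyltransferase, with 0.69 to 4.68 CPM in TESA and 3.68 to 7.66 CPM in CTRL and a log2 fold change of -1.30 ± 0.57 (SE). Only the fits without TESA 7 (0.00978) or CTRL 2 (0.0391) kept its unadjusted p under 0.05, and without CTRL 8 it was 0.111. These fits of Prmt1 were chosen after seeing the data. Of 9 tested subunits of Polycomb complex 2, which methylates H3K27, 7 were lower and 2 higher, with a median of -0.34. Of all 13752 tested features 7183 were lower. Eed, which binds the finished mark, ranged from 0.542 to 1.56 CPM in TESA and from 1.94 to 3.91 CPM in CTRL, a log2 fold change of -1.28 ± 0.60 (SE, unadjusted p = 0.0606). Its groups and those of the demethylase relative Jmjd1c were apart, both lower in TESA, 2 of 40 partner genes (5%) against 1.95% of all tested features. In Jmjd1c the highest TESA value, 25.1 CPM, and the lowest CTRL value, 25.13 CPM, were nearly equal (unadjusted p = 0.104). The subunits shared by the KMT2 and SETD1 complexes were 4 higher and 7 lower of 11 tested, with a median of -0.04, and Wdr5 among them had a log2 fold change of 0.20 ± 0.29 (SE). H3K9 methylation partners were 5 higher and 2 lower of 7 tested, with a median of 0.15. Whether these splits of the partner lists hold on other scales or without CTRL 4 was not tested.

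The receptors that tesaglitazar activates bind, with RXR, to direct repeats of AGGTCA-like letters with 1 base between them, which is why the promoters were searched for such letters. RefSeq promoters of 300 bases (GRCm38.p6, 250 before to 50 after a transcript start, which for Kdm6a and for the printed promoter of Setd8 is not the first base of the gene) were matched for 42 of 55 members, too few to describe the promoters of the set as a whole. The repeats AGGTCANAGGTCA, AGGTCANGGGTCA, GGGTCANAGGTCA and GGGTCANGGGTCA were looked for on both strands and were found in 0.128% of 32851 promoters of all genes. Among the members, only the promoter of Smyd5 held one, and its first base lay 5 bases before the start. The single half-site AGGTCA occurred in 16.3% of all promoters, and among the members it was found for Ehmt1, Kdm1a, Kdm4c, Kdm6a and Setd8. The windows of Kdm6a and Setd8 are printed since both stood under 0.05 before adjustment, and in Setd8 the half-site lies in 1 of 3 promoters as its reverse complement. The windows, all on the plus strand with the matching letters in capitals, are at chr6:85431963-85431991 for Smyd5, chrX:18162536-18162557 for Kdm6a and chr5:124446517-124446538 for Setd8. A match of letters does not show that a receptor binds there.
Smyd5: ccgggacgGGGTCAAGGGTCAgaaggcag
Kdm6a: gtcaacaaAGGTCAcgtgaggc
Setd8: cacagaagTGACCTgtactgat

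At 46 days no member changed past an adjusted p of 0.05 either. Of the 15 members present then, 14 exceeded 20 counts in 6 or more libraries. Among these, 0 passed in edgeR's quasi-likelihood fit, adjusted by Benjamini-Hochberg, as did 0% of the 2866 features. At an unadjusted p under 0.05 stood 1 member (7.14%), Kmt2d, against 5.3% of all tested features. The exact test and DESeq2 also gave Kmt2d alone, limma voom gave Setd2 alone, and each had 0 members past the adjusted threshold. In the same order, 190, 135 and 165 of the 2866 features had an unadjusted p under 0.05. At an unadjusted p under 0.05 in the quasi-likelihood fit, Kmt2d was higher in TESA, as were 4.26% of features. At this threshold 0 members were lower, against 1.05% of features. The groups were apart for 0 members in either direction, and for 0.0349% of features higher and 0% lower in TESA. The median log2 fold change was 0.12 over members and -0.03 over all tested features, with 9 of 14 members higher, and on the scale of library totals these medians were -0.96 and -1.09. Without TESA 12 the median over members was 0.02, and without CTRL 06 it was 0.07. Kmt2a exceeded 20 counts in fewer than 6 libraries and was not tested.

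Kmt2d (chr15:98831669-98874077), which with Kmt2c monomethylates H3K4 at enhancers, ran from 2.33 CPM through a median of 5.44 to 29.2 CPM in TESA, and from 2.32 CPM through a median of 2.77 to 5.08 CPM in CTRL. The highest value was that of TESA 12, with 74 counts, and TESA 01, 05 and 11 also lay above all CTRL libraries at 9.25, 5.44 and 6.24 CPM. TESA 02, with 2 counts, and TESA 03 and 04 lay within the CTRL values. The log2 fold change was 1.36 ± 0.46 (SE; 95% interval 0.38 to 2.35), with an unadjusted p of 0.00974 and an adjusted p of 0.754 (edgeR quasi-likelihood, Benjamini-Hochberg). Without TESA 12 it was 0.67 with an unadjusted p of 0.0362. In limma voom it was 0.59 with an unadjusted p of 0.0594. In libraries KG8-01 to KG8-10 alone it was 0.50 with an unadjusted p of 0.174, and on library totals alone 0.06, a scale that moved the median of all features to -1.09. The partner gene Ash1l, another H3K36 methyltransferase, ran from 1.29 to 28.1 CPM in TESA and from 2.41 to 4.75 CPM in CTRL, a log2 fold change of 1.13 ± 0.51 (SE, unadjusted p = 0.044), and was the 1 of 8 tested partner genes (12.5%, against 5.3% of all tested features) with an unadjusted p under 0.05. The value of 28.1 CPM is that of TESA 12, and without this library the log2 fold change of Ash1l was 0.21 with an unadjusted p of 0.518. In fits without 1 library, chosen after seeing the data, the unadjusted p of Ash1l was above 0.05 in 9 of 14, among them those without TESA 02 (0.0525), TESA 05 (0.0594) and CTRL 06 (0.0792).

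TESA 12 held the highest value of 5 of 14 members (35.7%) and of 24.2% of all tested features. For Setd2 it had 21.3 CPM, while the median of TESA was 2.01 CPM and the lowest value 0, and CTRL ran from 2.31 CPM through a median of 3.36 to 4.22 CPM. TESA 12 lay above all CTRL values and TESA 11 among them, and the remaining TESA libraries were near or below the lowest CTRL library. The log2 fold change of 0.33 ± 0.67 (SE) was -0.79 without TESA 12 (unadjusted p = 0.0675). It was -1.23 in libraries KG8-01 to KG8-10 alone (unadjusted p = 0.0233) and -1.34 in limma voom (unadjusted p = 0.0312). Nsd1 ran from 1.164 CPM (1 count, in TESA 02) through 4.78 to 14.2 CPM in TESA and from 3.61 through 4.82 to 6.33 CPM in CTRL. Its log2 fold change of 0.21 ± 0.33 (SE) was -0.16 without TESA 12. Prdm2 ran from 3.22 CPM through 4.91 to 12.6 CPM in TESA and from 4.12 through 5.21 to 6.42 CPM in CTRL, with a log2 fold change of 0.08 ± 0.27 (SE) that was -0.23 without TESA 12. In each of these 3 genes TESA 12 thus set the sign, and the sperm marker sum of TESA 12 was 431 CPM. CTRL 13 had a lower sum, 357 CPM, and members summed to 113.4 CPM in it and to 168.8 CPM in TESA 12. The part of its depth in these values was not tested.

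Of the demethylases at 46 days, Kdm5b was between 23.3 and 35.5 CPM in TESA (median 31.1) and between 24.1 and 32.2 CPM in CTRL (median 27.3). Only TESA 11 and TESA 03 exceeded all CTRL libraries, and its log2 fold change was 0.12 with a 95% interval from -0.15 to 0.39, or 0.077 without CTRL 09. Kdm3a was between 9.4 and 21.9 CPM in TESA (median 16.3) and between 11.5 and 19 CPM in CTRL (median 14.8), a log2 fold change of 0.15 ± 0.18 (SE) that was 0.0368 without TESA 03. Kdm6b was between 2.33 and 13 CPM in TESA (median 7.58) and between 5.03 and 7.34 CPM in CTRL (median 6.55). TESA 12 was again the highest of all libraries, with 33 counts, and TESA 02 the lowest, with 2 counts. The log2 fold change of Kdm6b, 0.26 ± 0.24 (SE), was 0.09 without TESA 12. Kdm3b was between 2.33 and 19.3 CPM in TESA (median 15.1) and between 12 and 20 CPM in CTRL (median 14). Its log2 fold change of -0.16 ± 0.26 (SE) was -0.31 without TESA 05. Without TESA 02, the lowest library with 2 counts, it was -0.062. Kdm4b was at 0 in TESA 02 and in CTRL 06 and up to 8.03 CPM in TESA 01, a log2 fold change of 0.11 ± 0.52 (SE). That value was -0.13 without CTRL 06, -0.06 without TESA 01, -0.04 without TESA 05 and 0.00317 without TESA 12. It was 0.225 without TESA 04, 0.20 without CTRL 07, 0.19 without TESA 02 and 0.06 without CTRL 08.

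**Figure D3:**
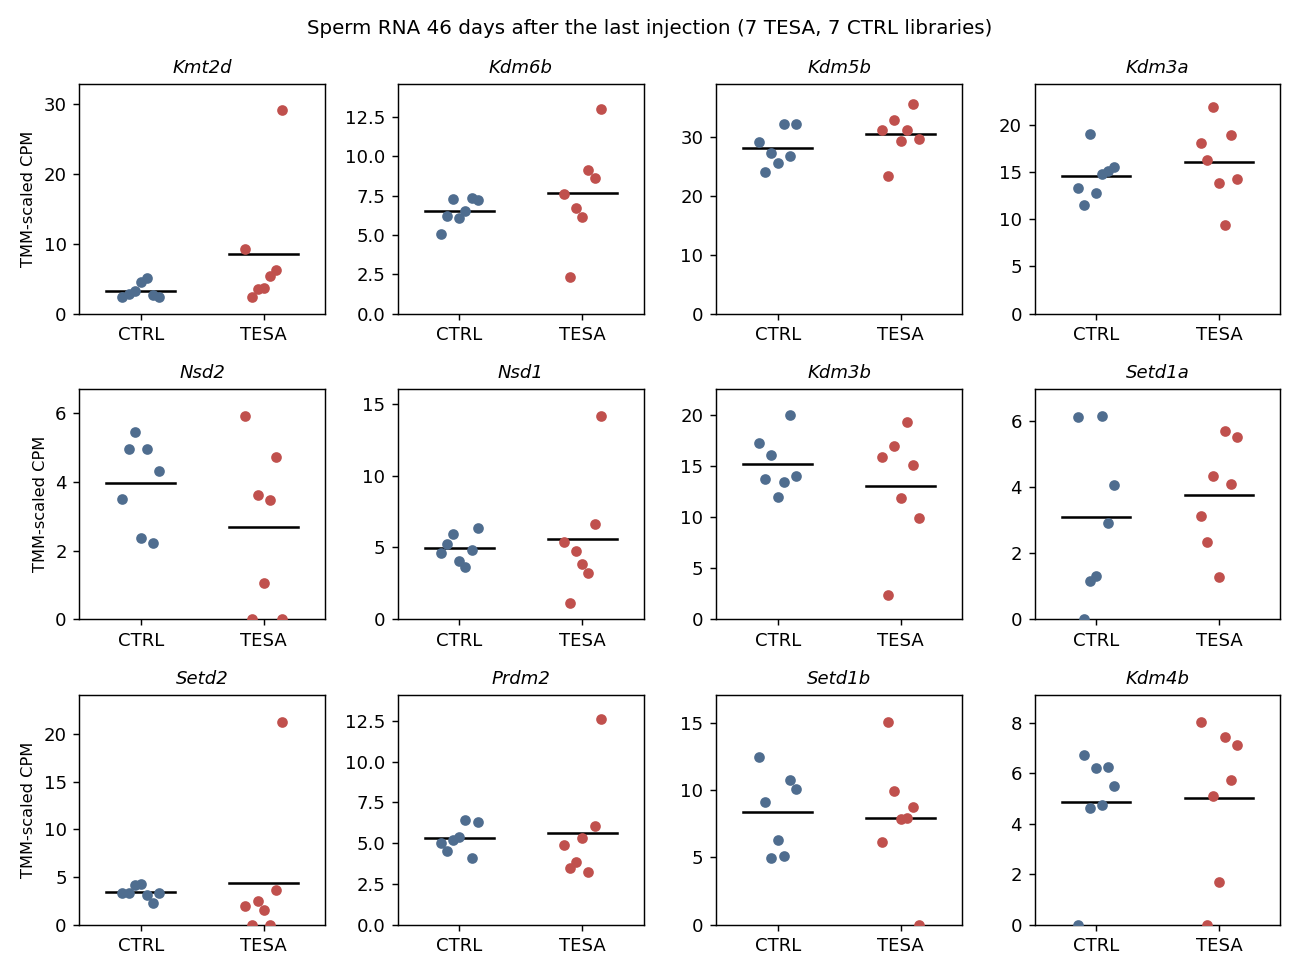
TMM-scaled CPM of the 12 members with the smallest unadjusted p at 46 days, one panel per gene with its own scale from 0. Each point is 1 library (7 CTRL, 7 TESA) and each bar is the group mean, and library TESA 12 is the high point for Kmt2d, Nsd1, Setd2 and Prdm2.

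Among the methyltransferases that remain, Nsd2 was between 0 and 5.91 CPM in TESA (median 3.46) and between 2.21 and 5.45 CPM in CTRL (median 4.31). It was at 0 in TESA 02 and TESA 12, and its log2 fold change was -0.35 ± 0.48 (SE), -0.20 without TESA 12 and -0.64 without TESA 01. Setd1a was between 1.27 and 5.69 CPM in TESA (median 4.1) and between 0 and 6.15 CPM in CTRL (median 2.91), so the TESA values lay inside the CTRL range. Its log2 fold change of 0.32 ± 0.62 (SE) was 0.09 without CTRL 07, 0.60 without CTRL 10 and 1.12 in limma voom (unadjusted p = 0.322). Setd1b was between 0 and 15.1 CPM in TESA (median 7.92) and between 4.98 and 12.5 CPM in CTRL (median 9.14). TESA 12 was at 0, and TESA 02 was the highest with 13 counts. A log2 fold change of -0.12 ± 0.45 (SE) became 0.04 without TESA 12 and -0.31 without TESA 02, and it ranged from -0.24 to -0.05 without any other library. Setd3 and Setd5 had log2 fold changes of -0.06 ± 0.33 and -0.04 ± 0.33 (SE). In 6 of 14 members (42.9%, against 16.3% of all tested features) at least 1 library had no count while another had more than 100.

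The effect of treatment was compared between the times in one model over all 22 libraries. Of the 14 members tested at both times, 0 differed past an adjusted p of 0.05, as did 0% of the 2680 features tested in both tables with edgeR's quasi-likelihood fit. DESeq2 gave 18 such features and 0 members. Of the 22 fits without 1 library, those without TESA 1, 3 or 5 at 24 h gave 6, 4 and 2 such features, the others 0, and all of them 0 members. At an unadjusted p under 0.05 stood 1 member, Kmt2d, against 8.17% of those features, and without 1 library from 0 to 2 members, with Kdm5b the second without TESA 3. The log2 fold change of Kmt2d was -0.10 at 24 h and 1.36 at 46 days. This is a difference of 1.46 ± 0.67 (SE) with an unadjusted p of 0.0397 and an adjusted p of 0.582 (edgeR quasi-likelihood, Benjamini-Hochberg). The median difference over all features was 0.29. With TMM over the tested features that median was 0.06, the difference of Kmt2d was 1.24 with an unadjusted p of 0.0835, and 0 members had an unadjusted p under 0.05. With TMM over all features the difference of Kmt2d was 0.78 without TESA 12 and 0.92 without CTRL 4. It had an unadjusted p under 0.05 in 11 of the 22 fits without 1 library, and it was -0.12 on the scale of library totals. Setd2 had -0.88 at 24 h and 0.33 at 46 days, a difference of 1.20 ± 0.90 (SE, unadjusted p = 0.194). Without TESA 12 at 46 days the difference of Setd2 was 0.0544 with an unadjusted p of 0.929, a fit chosen after seeing the data. Of the 14 members 2 (14.3%, against 15.1% of all features tested at both times) were higher in TESA at both times, Kdm6b and Setd1a, and 3 (21.4%, against 40.1%) were lower at both, Kdm3b, Setd1b and Setd5. At 24 h Setd1a and Kdm3b were at 0.01 and -0.01. At 46 days Setd1b turned to 0.04 without TESA 12, and Kdm6b and Setd1a to -0.83 and -0.93 on the scale of library totals. Time after injection and the selection of RNA changed together between the experiments, so their effects on these differences cannot be told apart.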

How the data were processed

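The authors trimmed reads with Trim Galore 1.16 and quantified them with Salmon 0.11.2, set for stranded reads, on GENCODE M18 transcripts (GRCm38), piRNA precursors and repeat families. The deposited estimated counts, not normalized, were rounded to whole numbers. After TMM over all features, those exceeding 20 counts in 4 or more libraries (24 h) or 6 or more (46 days), 80% of the smaller group, entered edgeR's quasi-likelihood fit (version 4.0.16, R 4.3.3), with Benjamini-Hochberg adjustment over all of them (threshold 0.05). Standard errors and 95% intervals come from the F statistic. The times were compared by a treatment by experiment term. Alternatives used edgeR's exact test, DESeq2 1.42.0, limma 3.58.1, other scalings and filters, and left out libraries; leaving out TESA 02 and TESA 12 together, and single libraries for Prmt1, Ash1l, Kmt2c and the difference of Setd2, was chosen after seeing the data. The code was tested on simulated data.

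Symbols were matched to RefSeq GRCm38.p6, 52 directly and 3 (Setd8, Suv420h1, Suv420h2) by synonym. Described one by one are the 10 members with the smallest unadjusted p at 24 h and the 12 at 46 days; others were named after their values were seen. A planned choice by level per length was not made for want of coding lengths. Members and lists were chosen with earlier results of these data known. TESA 12 is KG8-12. All 14 libraries at 46 days were used, although the article's figure legend counts fewer TESA libraries and does not name any left out. Serum libraries were not used here. Figures used matplotlib 3.10.9 (Python 3.11.15).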

Additional observations from a re-analysis of the deposited data

Results flagged for a closer look

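Each group of named members, and the summed level of members, was searched for a single library far from the others of its group. Of 48 groups in all, 6 were marked. The rule is set to mark about 1 in 20 groups of independent normal values. These groups share libraries and some hold values of 0, so the count cannot be read against that rate. Library TESA 12 at 46 days accounts for 4 of the 6 marks. It had 29.2 CPM for Kmt2d, where the other TESA libraries had 2.33 to 9.25 CPM, and 14.2 CPM for Nsd1, where the others had 1.164 to 6.64 CPM. It had 21.3 CPM for Setd2, where the others had 0 to 3.6 CPM, and 12.6 CPM for Prdm2, where the others had 3.22 to 6.07 CPM. Kdm4b was at 0 in CTRL 06 at 46 days, while the other CTRL libraries had 4.63 to 6.72 CPM. Kdm4d was at 0 in CTRL 2 at 24 h, while the other CTRL libraries had 0.97 to 0.995 CPM. What sets these libraries apart was not tested.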

How the results depend on the processing

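The count of members past an adjusted p of 0.05 was 0 at 24 h, at 46 days and for the difference between them in edgeR's quasi-likelihood and exact tests, DESeq2 and limma voom and without each library (the exact test and limma voom were not run on the difference). At an unadjusted p under 0.05 the counts at 24 h were 3 in the quasi-likelihood test, the exact test and DESeq2 and 4 in limma voom, and 1 at 46 days in each of the 4, which was Setd2 in limma voom and Kmt2d in the others. In this order of methods, 372, 377, 492 and 1022 of 13752 features stood there at 24 h. At 46 days they were 152, 190, 135 and 165 of 2866. Past an adjusted p of 0.05 the exact test called 14 of all features at 46 days, and DESeq2 called 18 for the difference. All 10 named members kept their direction at 24 h in 10 other settings and 8 fits without 1 library. The 12 named at 46 days kept theirs in 134 of 156 values from other settings and in 161 of 168 without 1 library. Causes of the changes below were not tested.

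On the scale of library totals alone, the median of all features moved to 0.19 at 24 h and -1.09 at 46 days. Members at an unadjusted p under 0.05 were then 1 and 0, against 151 of 13752 and 206 of 2866 features. The medians of members were 0.25 and -0.96, and log2 fold changes at 46 days turned to -0.83 (Kdm6b), -0.94 (Kdm5b), -0.81 (Kdm3a), -0.92 (Nsd1), -0.93 (Setd1a), -1.01 (Setd2), -1.14 (Prdm2) and -0.99 (Kdm4b), and the difference of Kmt2d to -0.12. In limma voom they turned to -0.00414 (Nsd1), 0.0472 (Kdm3b), -1.34 (Setd2), -0.24 (Prdm2) and 0.18 (Setd1b). In libraries KG8-01 to KG8-10 alone they turned to -0.20 (Nsd1), -1.23 (Setd2), -0.33 (Prdm2) and 0.23 (Setd1b), and with a term for KG8-11 to KG8-14 to -0.25 (Setd2). Without TESA 02 and TESA 12, chosen after seeing the data, they turned to -0.077 (Nsd1), 0.0128 (Kdm3b), -0.73 (Setd2) and -0.21 (Prdm2), and Kmt2d was 0.74.

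Without 1 library each, the count at an unadjusted p under 0.05 ran from 1 to 5 at 24 h and was 1 throughout at 46 days, and the median from -0.0902 (CTRL 6) to 0.20 (CTRL 4) at 24 h and from 0.02 to 0.15 at 46 days. At 46 days Nsd1 ran from -0.16 to 0.29, Setd2 from -0.79 to 0.57, Prdm2 from -0.23 to 0.17 and Setd1b from -0.31 to 0.0363, each turned without TESA 12, and Kdm4b from -0.13 to 0.225, turned without TESA 01, TESA 05 or CTRL 06. No paired analysis was possible because the library numbers of TESA and CTRL do not overlap. At 24 h these numbers alternate between TESA and CTRL, but the labels do not state that neighbouring libraries belong together. Whether the 24 h results change when neighbouring libraries are compared with each other was not tested. Depth limits TESA 02 most, with 62 counts over all members.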
